A study of Mus musculus with 13 samples.

Results

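Regions of open chromatin that were in the lists of the 50000 strongest regions of the distal forelimb (DFL), but not in those of the proximal forelimb (PFL) or the forebrain (FB), were described in mouse embryos at E12.5. Accessibility was measured by ATAC-seq, in which the Tn5 transposase inserts adapters into open DNA, with 50000 cells in each library. For every library the 50000 strongest regions were kept, by −log10 q and then by fold, on chromosomes 1 to 19 and on chromosome 2 only below 75 Mb, and the lists of 12 libraries were merged into 112412 regions. A member had to be overlapped by the lists of all 4 DFL libraries and by none of the lists of the 4 PFL and 4 FB libraries, which left 2120 members, 1.89% of the merged regions. The wild-type (wt) groups were wt DFL, wt PFL and wt FB, and the other groups were 542 DFL, 542 PFL and 542 FB, each with 2 replicates and all on the B6CBAF1 background. Animals of allele 542 carry II1, an enhancer of distal limb cells, next to an HBB promoter and a LacZ gene in T-DOM, the regulatory domain on the telomeric side of the HoxD cluster. The native copy of II1 remains in place in C-DOM, the domain on the centromeric side. A further wt DFL library, an earlier sample that was analysed again, took no part in choosing the members.

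The limb bud is patterned from its base to its tip. Cells at the tip, which form the hand plate and the digits, express the HOXA13 and HOXD13 transcription factors, whereas cells nearer the trunk express MEIS factors. Tissue-specific enhancers mostly lie far from promoters, open in the cells that use them, and carry short sequence motifs that transcription factors read. HOX13 proteins prefer motifs such as CAATAAA and TCGTAAA, many other homeodomain proteins prefer TAATTA or CAATTA, and MEIS proteins prefer CTGTCA.

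The sequences below show what such regions look like around their summit, the point of highest signal. Each is 300 bp of the mm10 (GRCm38) reference, plus strand, centred on the strongest summit. Capitals mark the HOX13-like motifs CAATAAA or TCGTAAA, and the homeodomain motifs TAATTA or CAATTA, on either strand, so that TTTATTG is the reverse complement of CAATAAA and TAATTG that of CAATTA. Names are those of the protein-coding gene with the nearest start. The first 3 members had the highest mean fold in DFL, the next 3 were among the strongest members near genes of a list of distal limb genes, and II1 is the element on which the study turned. The element itself is chr2:74075307-74075849. Its window, centred on the summit, leaves out the start of the element and runs past its end into flanking DNA.
Erbb4, chr1:68674676-68674975: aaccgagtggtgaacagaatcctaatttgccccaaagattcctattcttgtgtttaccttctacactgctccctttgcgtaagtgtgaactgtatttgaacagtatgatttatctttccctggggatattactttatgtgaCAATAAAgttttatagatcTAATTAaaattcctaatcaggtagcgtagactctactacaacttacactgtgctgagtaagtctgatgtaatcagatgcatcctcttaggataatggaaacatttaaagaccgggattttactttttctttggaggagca
Itsn2, chr12:4582409-4582708: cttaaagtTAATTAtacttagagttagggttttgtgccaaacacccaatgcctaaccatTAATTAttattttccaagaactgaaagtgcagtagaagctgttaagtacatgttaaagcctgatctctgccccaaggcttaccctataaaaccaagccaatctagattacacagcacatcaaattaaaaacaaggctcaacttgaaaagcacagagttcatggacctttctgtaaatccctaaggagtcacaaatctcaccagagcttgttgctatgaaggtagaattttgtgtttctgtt
Schip1, chr3:68160182-68160481: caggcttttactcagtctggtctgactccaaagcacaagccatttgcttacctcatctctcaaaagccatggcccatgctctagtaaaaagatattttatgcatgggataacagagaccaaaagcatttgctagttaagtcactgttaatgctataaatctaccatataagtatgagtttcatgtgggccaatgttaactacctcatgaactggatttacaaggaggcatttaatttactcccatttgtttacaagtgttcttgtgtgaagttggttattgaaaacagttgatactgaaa
Tfap2b, chr1:19647892-19648191: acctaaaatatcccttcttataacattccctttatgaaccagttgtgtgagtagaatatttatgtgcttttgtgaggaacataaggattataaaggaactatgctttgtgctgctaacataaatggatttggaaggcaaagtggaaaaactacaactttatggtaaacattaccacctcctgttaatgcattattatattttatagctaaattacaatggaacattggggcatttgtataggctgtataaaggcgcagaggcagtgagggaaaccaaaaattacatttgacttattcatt
Tfap2a, chr13:40646223-40646522: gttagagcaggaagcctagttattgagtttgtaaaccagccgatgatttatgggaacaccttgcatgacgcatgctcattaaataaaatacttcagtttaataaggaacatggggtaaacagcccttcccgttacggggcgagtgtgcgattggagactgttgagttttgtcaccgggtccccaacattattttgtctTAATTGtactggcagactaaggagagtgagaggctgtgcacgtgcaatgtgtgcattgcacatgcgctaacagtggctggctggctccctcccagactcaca
Cyp26b1, chr6:84441859-84442158: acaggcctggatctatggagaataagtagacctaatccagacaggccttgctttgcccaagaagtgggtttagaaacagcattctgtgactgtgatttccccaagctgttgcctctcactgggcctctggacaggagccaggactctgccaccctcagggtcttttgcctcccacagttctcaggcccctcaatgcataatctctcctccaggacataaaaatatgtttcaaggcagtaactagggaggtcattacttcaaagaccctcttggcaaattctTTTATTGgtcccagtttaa
II1, chr2:74075655-74075954: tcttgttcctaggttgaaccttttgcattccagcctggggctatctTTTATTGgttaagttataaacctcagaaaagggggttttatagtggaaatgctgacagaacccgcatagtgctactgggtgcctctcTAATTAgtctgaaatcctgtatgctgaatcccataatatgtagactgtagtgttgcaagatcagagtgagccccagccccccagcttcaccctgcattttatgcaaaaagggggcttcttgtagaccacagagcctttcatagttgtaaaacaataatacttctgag
The Erbb4 window had a CAATAAA 6 bp to the left of its centre and a TAATTA just to the right. The window of II1 held a TTTATTG 101 bp to the left of the summit and a TAATTA 14.5 bp to the left. By motif discovery, the paper reports more HOX13 motifs in II1 than the exact letters found in this window. Most of them are clustered under the HOXA13 and HOXD13 binding peaks, and the paper found the clustered motifs necessary for distal limb staining. Counts of the exact letters are therefore not counts of HOX13 binding sites. The Cyp26b1 window held a TTTATTG 134 bp to the right, near its edge. Itsn2 had 2 TAATTA motifs, Tfap2a had 1 TAATTG, and the Schip1 and Tfap2b windows had none of the 4 motifs. The capitals therefore do not mark every strong member.

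Among all members the largest number of HOX13-like motifs (CAATAAA or TCGTAAA) in a 300 bp window was 3, and 4 members had that number, nearest to Myc, Chl1, Meox2 and Gm765. The 2 strongest of these by mean fold, which were chosen after the motifs had been counted, are shown.
Myc, chr15:62698141-62698440: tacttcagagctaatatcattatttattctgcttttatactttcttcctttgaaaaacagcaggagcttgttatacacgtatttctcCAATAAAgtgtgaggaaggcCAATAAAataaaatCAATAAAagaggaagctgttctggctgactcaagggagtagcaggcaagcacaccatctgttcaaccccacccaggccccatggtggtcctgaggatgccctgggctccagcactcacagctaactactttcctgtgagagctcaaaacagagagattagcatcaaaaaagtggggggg
Chl1, chr6:103585194-103585493: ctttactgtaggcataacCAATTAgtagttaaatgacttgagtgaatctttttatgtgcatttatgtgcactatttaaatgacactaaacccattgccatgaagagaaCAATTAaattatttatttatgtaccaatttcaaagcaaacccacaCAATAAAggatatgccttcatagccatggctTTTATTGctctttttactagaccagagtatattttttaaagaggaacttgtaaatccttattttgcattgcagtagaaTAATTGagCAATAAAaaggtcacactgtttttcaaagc
In the Myc window, which lay 711 kb from the start of Myc, the motifs stood 60, 40 and 26 bp to the left of the summit and on the same strand. In the Chl1 window they stood 6, 37 and 123 bp to the right, beside 3 CAATTA motifs. The Myc member had a fold of 8.01 and 8.21 in 542 DFL and 8.76 and 9.90 in wt DFL, and the Chl1 member 9.79 and 8.36 in 542 DFL and 7.91 and 7.70 in wt DFL.

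The fold is the deposited enrichment of tags at a summit over the local background of the same library. It has no control sample and no scaling between libraries, so ranks are within a library. The folds and ranks of members in the 12 libraries come from the files that chose them and carry no test between tissues. The median fold of members was 6.40 and 6.69 in the 542 DFL libraries and 6.38 and 6.48 in the wt DFL libraries. The mean over the 4 DFL libraries had a median of 6.54 and ran from 2.62 to 13.4. The other 31736 regions shared by all 4 DFL lists had a median mean fold of 8.69, so that members were mostly weaker than these. Their median rank was between 26680 and 31013 in the 4 DFL libraries. Members were also narrower than the other shared DFL regions, with a median width of 618.5 against 731.5 bp, and 68.3% had a single summit against 55.9%. Summit positions in the 4 DFL libraries spread over a median of 66 bp, against 28 bp for the other shared regions.

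Absence from a list was not absence of a call. When all deposited regions were read, 1564 of 2120 members (73.8%) overlapped a lower-ranked region in at least 1 PFL or FB library. Of all merged regions 95.2% had a region at any rank in PFL or FB, a share that includes regions in those very lists. The other 556 members (26.2%) had no call at any rank in the 8 libraries. By the deposited calls, the label of regions open in DFL alone therefore holds for these 556 members and not for the rest. Absence of a call does not show that a region is closed. Members are called distal forelimb list regions here by the rule. Lower-ranked calls were mostly in PFL: 1077 members had them in PFL and not in FB, 121 in FB and not in PFL, and 366 in both tissues. In all 4 PFL libraries 231 members had a call, and in all 4 FB libraries 71.

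By library, 1052 and 983 members had a lower-ranked call in wt PFL, 685 and 560 in 542 PFL, 306 and 225 in wt FB, and 250 and 210 in 542 FB. The wt PFL libraries had 113865 and 110916 deposited regions and the 542 PFL libraries 94904 and 85104, so that the number called moved with the length of the file. Its part in the difference between genotypes was not tested. The lower-ranked regions were weak. Their median fold per library was between 3.09 and 3.56, and the highest was 4.79. The mean DFL fold was a median of 1.83 times the highest lower-ranked fold, and no member had a lower-ranked fold above its DFL mean. The rule itself kept these calls below rank 50000, where the fold was 3.23 to 4.79 in the PFL and FB libraries. Their weakness therefore follows largely from the choice of members. In bulk samples of this kind, fewer cells with an open region and a less open region in every cell cannot be told apart.

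**Figure D1:**
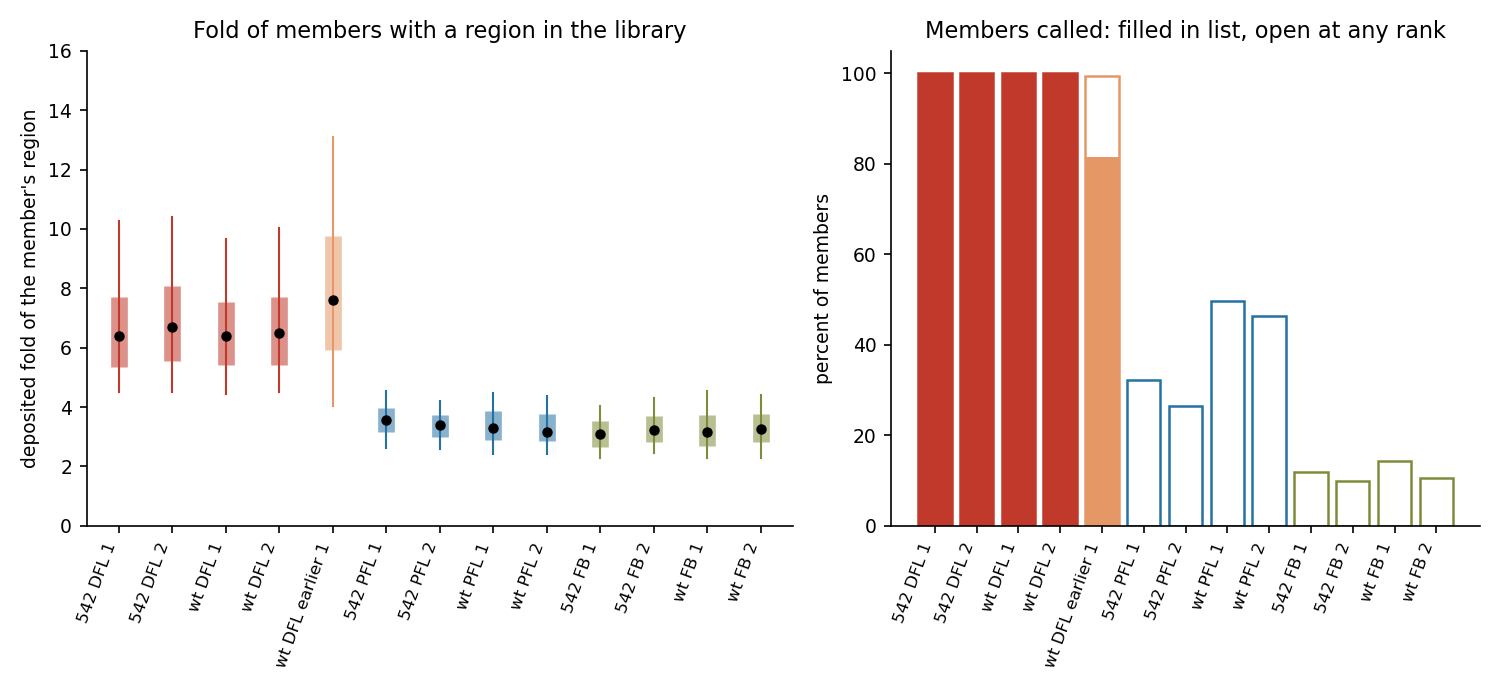
Left, deposited fold of members in each library that had a region there (point, median; thick bar, quartiles; line, 5 to 95%); right, percent of the 2120 members in the 50000-region list (filled) or at any rank (open). Medians were 6.38 to 6.69 in the 4 DFL libraries that chose the members, 7.60 in the additional wt DFL library and 3.09 to 3.56 for lower-ranked calls in PFL and FB.

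The additional wt DFL library allowed a comparison that the rule had not used. Its 50000 strongest regions held 1728 members (81.5%, exact 95% binomial interval 79.8 to 83.1%, for counting error alone), against 41.7% of all merged regions. All members, but only 33856 of the merged regions, were in all 4 DFL lists. An excess over all merged regions in a further DFL list therefore follows in part from the choice. The same list held 13.5% of the 2046 regions picked by the same rule for PFL, 1.77% of the 9792 regions picked for FB and 97.7% of the 18691 regions present in all 12 lists. Among its 20000 strongest regions were 14.95% of members, against 17.7% of all merged regions. At any rank it had a call at 2109 members (99.5%), against 69.4% of all merged regions. The 11 members without a call had mean DFL folds of 5.07 to 6.90. Members that had no lower-ranked call in PFL or FB were in its 50000-region list in 77.3% of cases, those with one in PFL and not in FB in 85.6%, and those with one in FB and not in PFL in 67.8%. As this was 1 library, no test between conditions was made.

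The choice was also repeated on the 6 replicate 1 libraries and measured in the 6 replicate 2 libraries. It gave 4189 regions, of which the lists of the second replicates held 81.9% (542) and 75.2% (wt) for DFL, 12.4% (542) and 10.1% (wt) for PFL, and 2.22% (542) and 2.05% (wt) for FB. The DFL libraries averaged 78.5% and the other 4 averaged 6.68%, a difference of 71.8 percentage points. With 2 against 4 libraries the two-sided exact permutation p was 0.0667, the smallest this design can give. Both DFL values lay far above the 4 others, and the PFL values lay above the FB values.

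The 10 strongest members had mean folds of 12.3 to 13.4, and none lay at a promoter. The strongest, at chr1:68674495-68675427 in an intron 433 kb from the start of Erbb4, a receptor tyrosine kinase gene, had a fold of 14.4 and 13.6 in wt DFL and 13.6 and 12.1 in 542 DFL (mean 13.4 ± 0.970, SD, n = 4). Its lower-ranked regions had 4.18 and 3.32 in wt PFL and 3.17 in 542 PFL 1, and the additional wt DFL library had 8.89. The gap between DFL and PFL values follows from the choice of this region by the same libraries. The value of the additional library, which took no part in the choice, lay between them. The next, at chr12:4582218-4582951 and 10.1 kb from Itsn2, had 14.05 and 13.4 in wt DFL and 13.98 and 11.8 in 542 DFL, with 3 lower-ranked PFL values of 4.19 to 4.37. The third, in an intron of Schip1 at chr3:68160003-68160911, had 11.7 and 13.6 in wt DFL and 13.6 and 13.2 in 542 DFL, with a single lower-ranked value of 4.07 in wt PFL 2. The other 7 were nearest to Extl2, Ppargc1a, Foxf2, Syce1, Zfp960, Acvr2a and Col12a1.

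Variation between the 4 DFL libraries was largest for the members near Foxf2 and Ppargc1a among these 10. The region 21.7 kb from Foxf2, a forkhead transcription factor gene, had 10.4 and 15.5 in 542 DFL and 11.5 and 13.5 in wt DFL, and no call in PFL or FB. The region 193 kb from Ppargc1a, a transcriptional coactivator gene, had 14.1 and 13.7 in 542 DFL and 13.0 and 10.3 in wt DFL. Both wt values near Foxf2 lay between the 542 values. The region near Syce1 had no lower-ranked call either, and its fold was 13.3, 13.1, 13.8 and 10.3.

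Genes with a known part in the distal limb were nearest to more members than to merged regions in general. Of 39 such genes that were nearest to any merged region, 17 were nearest to a member. They took 28 of the 2120 members (1.32%), against 0.588% of all merged regions and 0.147% of the regions picked by the same rule for PFL. For FB the share was 0.664%. Within 100 kb of the start of a listed gene, nearest or not, lay 20 members (0.943%, against 0.457%). The list was written with earlier results of these data known, and no test was made on it.

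Among the transcription factor genes, the strongest member near Hand2, a bHLH factor gene of the posterior limb, lay 63.0 kb away. Its fold was 8.28 and 8.62 in wt DFL and 9.48 and 7.22 in 542 DFL, and 3.22 and 2.71 in the wt PFL libraries at a lower rank. Members near Tfap2b, an AP-2 factor gene, lay 436, 488 and 24.8 kb away. The strongest, at chr1:19647523-19648835, had 8.42 and 9.88 in wt DFL and 6.55 and 8.60 in 542 DFL. The strongest region near Tfap2a, at chr13:40645809-40646663, had 6.54 and 6.30 in wt DFL and 8.63 and 7.59 in 542 DFL. DFL values near Hand2 and Tfap2b interleaved between genotypes, and those near Tfap2a did not. Sall3, a zinc-finger gene, had members 67.5 and 245 kb away with mean folds of 8.07 and 5.71.

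Pax9, a paired-box gene, had a member 8.78 kb from its start with 2 HOX13-like motifs and a narrow spread (6.51 ± 0.374, SD, n = 4). Lmo1, a LIM-domain gene, had 2 intronic members with mean folds of 6.81 and 4.25, both with lower-ranked calls in all 4 PFL libraries. The members near the homeobox genes Dlx6 and Msx2 were weaker, at 5.23 and 4.80. The member 7.75 kb from Sp9, a zinc-finger gene of the apical ectodermal ridge, had 5.42 and 5.43 in wt DFL and 4.87 and 5.48 in 542 DFL. It also had lower-ranked calls of 4.34 in wt PFL 1 and of 2.16 to 3.05 in all 4 FB libraries. The 3 lower-ranked calls near Dlx6 were all in FB. Tbx3, a T-box gene, had a member 409 kb away with a mean fold of 5.95 and no call in PFL or FB.

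Among genes of signals, receptors and enzymes, Gli3, the main transcriptional effector of Hedgehog signals in the limb, had 4 members, with mean folds of 5.67 to 6.39. Ror2, a receptor for Wnt5a, had 3, at 6.11 to 6.93. Bmp4, a growth factor gene, had 1, 176 kb away, with 5.26 and 5.44 in wt DFL and 6.84 and 6.32 in 542 DFL. Cyp26b1 encodes an enzyme that breaks down retinoic acid. Its member, 146 kb away at chr6:84441742-84442545, had 7.76 and 5.78 in wt DFL and 7.01 and 8.12 in 542 DFL, 10.8 in the additional library, and no call in PFL or FB. The intronic region of Wnt5a at chr14:28467733-28468453 had 5.73 and 5.98 in wt DFL and 4.48 and 5.58 in 542 DFL. Its lower-ranked values reached 4.55 in wt PFL 1, above the value in 542 DFL 1, so that fold did not separate the tissues there.

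Only 20 members (0.943%) had a summit within 1000 bp of an annotated coding start, and 3 of these starts were of distal limb genes. The member at Hoxd12, chr2:74674618-74675320, had 4.51 and 4.99 in wt DFL and 3.43 and 3.37 in 542 DFL. Lower-ranked regions there had 3.34 and 2.71 in wt PFL and 3.79 and 3.48 in 542 PFL, so that within genotype 542 the PFL fold was above the DFL fold. The member at the Hand2 start had 3.91 and 3.19 in wt DFL and 3.41 and 3.28 in 542 DFL, with 1 lower-ranked value of 2.80 in wt PFL 1. The member at Asb4 had 4.32 to 5.74 in DFL and lower-ranked calls of 3.27 to 4.36 in all 8 other libraries. All 3 had mean folds below the median of members, whereas the promoter members at Sdr42e1 and Selenof, at 9.31 and 9.13, were above it.

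**Figure D2:**
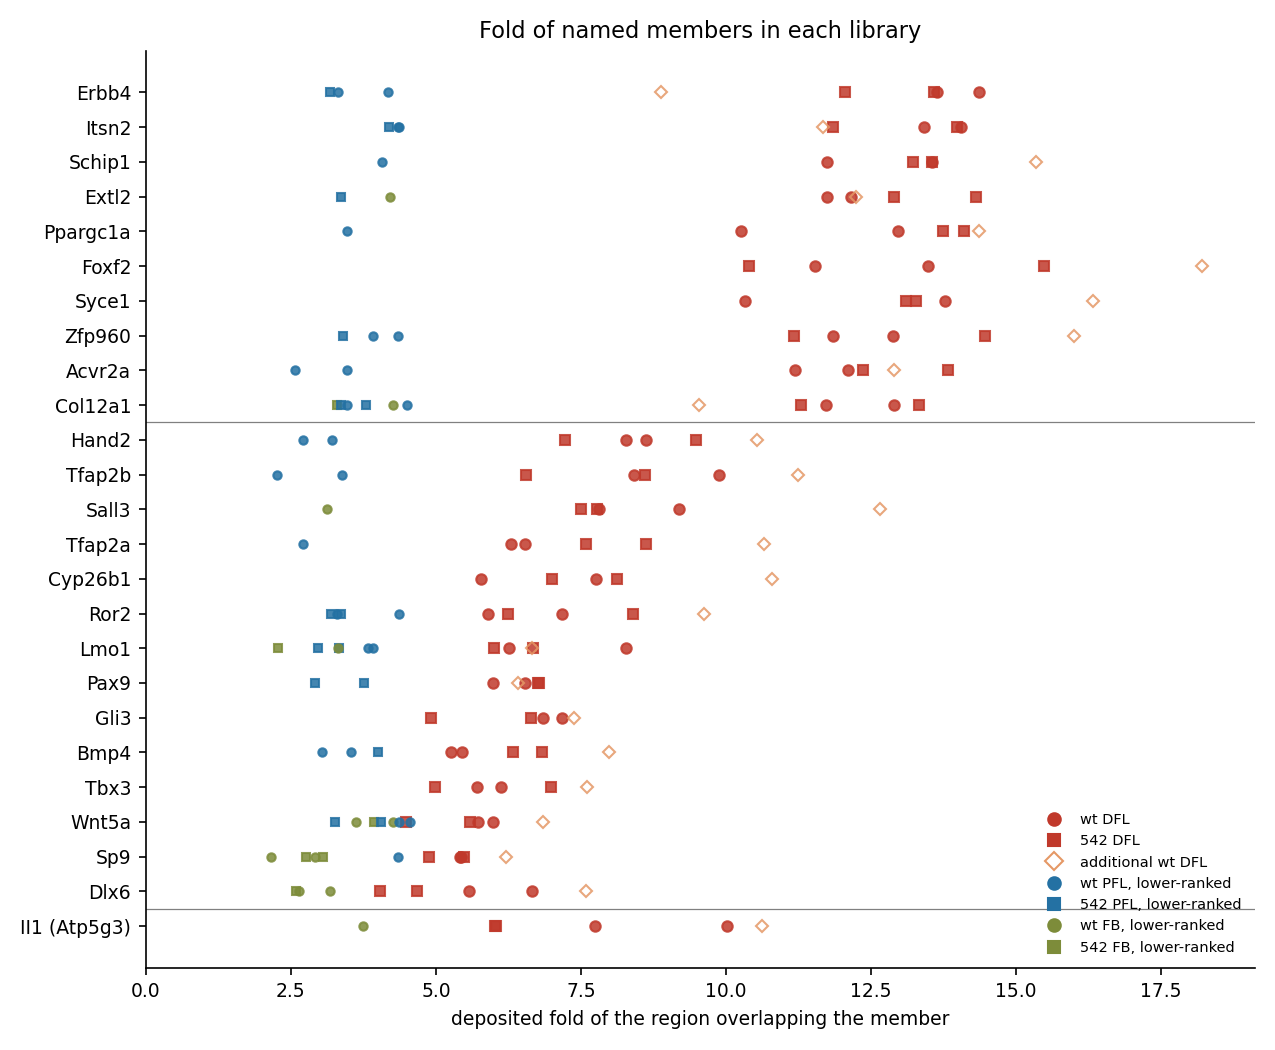
Deposited fold (x axis) in each library for the 10 strongest members, for the strongest member near each of 14 distal limb genes and for the region over II1, named by the nearest coding gene (y axis). Blue and green points are lower-ranked regions, and points are missing where a library had no call; the lower-ranked values near Wnt5a reach 4.55 and touch the DFL values.

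The region over II1 was itself a member. II1 (chr2:74075307-74075849, 543 bp between its amplification primers) lay inside the merged region chr2:74075155-74076242, which is intergenic and 164 kb from the nearest coding start, Atp5g3. Its fold was 7.74 and 10.0 in wt DFL and 6.01 and 6.03 in 542 DFL, 10.6 in the additional wt DFL library and 3.74 in wt FB 1 at a lower rank. No other PFL or FB library had a call. Both 542 values lay below both wt values. Animals of allele 542 carry II1 in 2 places, and read pairs that fit both copies equally were removed by the mapping-quality limit that the authors set. How much this took from the 542 values was not tested. Between II1 and the HoxD cluster, 3 further members near Atp5g3 and Lnpk lay within 82.6 kb, at chr2:74190464-74273079, where 11 merged regions were found in all.

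Genes of the proximal limb were near members too. A list of such genes, of which 22 were nearest to any merged region, took 23 members (1.08%), against 0.589% of all merged regions and 0.684% of the regions picked for PFL. Within 100 kb of the start of such a gene lay 8 members (0.377%, against 0.317%), a smaller excess. Nr2f1, an orphan nuclear receptor gene, had 5 members, and Meis1, Osr1, Pkdcc and Nr2f2 had 3 each. The strongest, 139 kb from Osr1, a zinc-finger gene, had a mean fold of 10.4 ± 0.993 (SD, n = 4). The 3 near Meis1, a homeobox gene of the proximal limb, were 304 to 460 kb away and varied between libraries, at 8.54 ± 2.56, 7.46 ± 2.25 and 6.90 ± 1.65 (SD, n = 4). Nearness to a gene does not show that a region acts on it.

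Signalling pathways took few members each. Genes of the Wnt pathway took 15 members (0.708%, against 0.609%), Bmp and Tgf-beta genes 8 (0.377%, against 0.383%), Hedgehog genes 6 (0.283%, against 0.252%), retinoic acid genes 5 (0.236%, against 0.176%), Fgf genes 4 (0.189%, against 0.324%) and Notch genes 3 (0.142%, against 0.165%). Counted within 100 kb of a start, the shares of Wnt (0.519%, against 0.607%), Hedgehog (0.189%, against 0.292%) and retinoic acid genes (0.0943%, against 0.219%) were below those of all merged regions. The share of Bmp and Tgf-beta genes turned the other way (0.425%, against 0.368%), so that no direction is read from any of these lists. Of the 39 Hox genes, Hoxd12 and Hoxc11 were nearest to 1 member each. The member 5.65 kb from Hoxc11 had a mean fold of 7.84. Bmpr1b, a BMP receptor gene of the digit rays, had 3 members between 32.2 and 60.9 kb away, at 8.00, 6.48 and 5.69.

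Markers of other cell types took few members, and few merged regions of any kind. None of the muscle markers was nearest to a member, against 0.0569% of all merged regions and 6 regions picked for PFL. None of the neural markers was, against 0.0774% of all merged regions and 23 of the 9792 regions picked for FB, and 1 member lay within 100 kb of a neural marker. Limb ectoderm markers took 1 member, in an intron of Trp63 (0.0472%, against 0.0338%), and within 100 kb 0.0472% against 0.0721%. Of blood and endothelium markers Cdh5 took 2 (0.0943%, against 0.0649%), 180 and 515 kb away. Within 100 kb these markers had 0 members, against 0.0712% of all merged regions. Of cartilage markers, Sox9, the master gene of cartilage, took 4 and Sox5 took 2, together 0.283% of members against 0.220% of all merged regions, and within 100 kb 0.0472% against 0.112%. At shares this low, counts of 0 do not tell the members from merged regions in general. Accessibility near a marker is not its expression, and no cell type was named from these counts.

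The genes nearest to the most members were also counted. Adgrl2 and Cdh8 were nearest to 11 members each, Chl1 and Adgrl3 to 8, Pik3c3 and Dach1 to 7, and Tenm2, Slc10a2, Angpt1 and Celf4 to 6, as was Zeb2. The first 10 were also nearest to 51 to 174 merged regions each, of which members made up between 4.38 and 11.8%. Angpt1, a vessel growth factor gene, had the highest of these shares and Chl1, a cell adhesion gene, had 10.7%. Dach1, a nuclear factor gene of the limb bud, had 7 members, no region picked for PFL and 9 picked for FB. Chl1 and Slc10a2 had no region picked for PFL either. In all, 1524 genes were nearest to a member, 1155 of them to a single one. Members were dispersed: 13.3% lay within 50 kb of another member, and 10.54% of other merged regions lay within 50 kb of a member. The largest groups, linked at 50 kb, held 4 members, near Chl1, Gja1 and Dst. By chromosome, members made up between 1.158% of merged regions on chromosome 7 and 2.31% on chromosome 3.

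Members lay far from coding starts. Of their summits, 885 (41.7%) were in introns, 1178 (55.6%) were intergenic, 37 were in exons and the 20 promoter cases made 0.943%, against 12.8% at promoters for all merged regions and 57.7% for the regions of all 12 lists. The median distance to a coding start was 81.6 kb, against 43.2 kb for all merged regions and 0.204 kb for the regions of all 12 lists. Farther than 100 kb from any coding start were 45.3% of members and 32.3% of all merged regions. In both respects members were like regions picked for the other tissues, since 1.86% of those picked for PFL and 2.06% of those picked for FB were at promoters, with median distances of 72.3 and 82.9 kb.

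**Figure D3:**
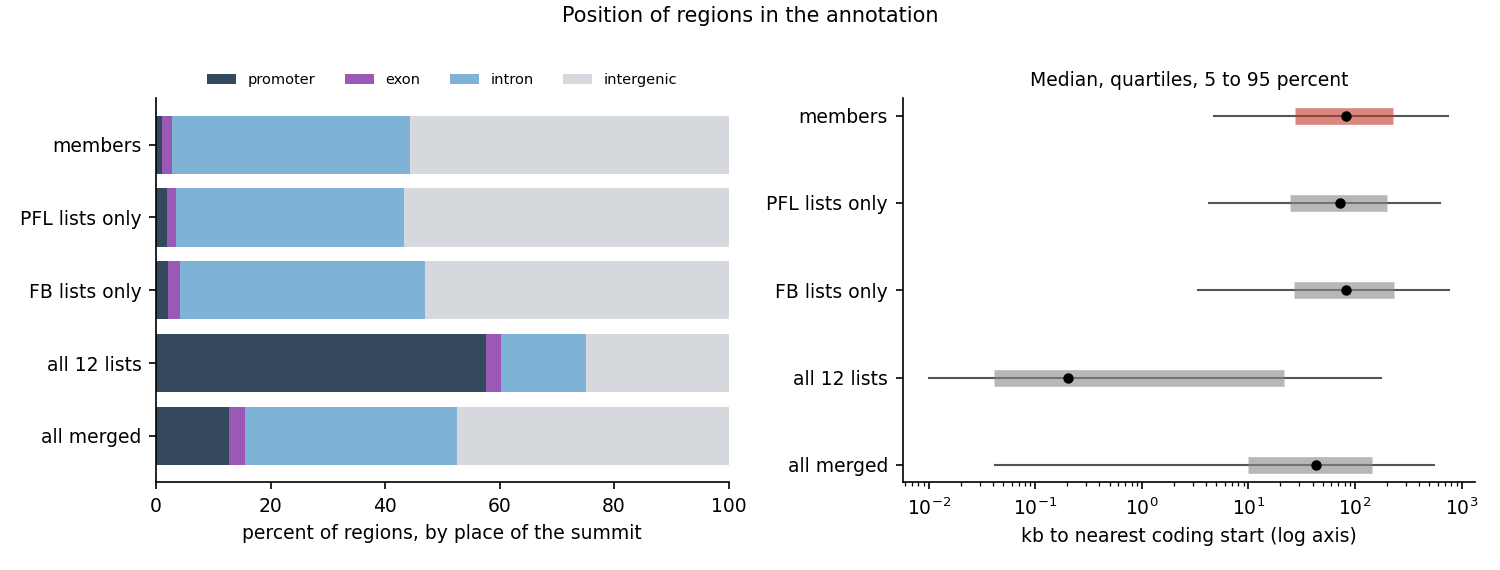
Left, percent of regions with the summit at a promoter (within 1000 bp of a coding start), in an exon, in an intron or between genes; right, distance from the summit to the nearest coding start (log axis; point, median; thick bar, quartiles; line, 5 to 95%, drawn from 0.01 kb). Members resemble regions picked by the same rule for PFL and FB, and regions of all 12 lists stand apart with 57.7% at promoters.

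The rule had not used sequence, and members differed from other regions in several motifs. In 300 bp windows on the summit, 423 members (19.95%) held CAATAAA on either strand, against 7.19% of all merged regions, 6.84% of regions picked for PFL, 5.23% of those picked for FB and 2.85% of the regions of all 12 lists. Among other regions of all 4 DFL lists outside promoters, the share was 8.41%. The second form, TCGTAAA, was in 60 members (2.83%), against 0.995% of all merged regions and 1.33% of the other DFL regions. Either form was in 474 members (22.4%), against 8.10% of all merged regions. HOX13-like motifs were thus more frequent in members than in each group compared, and 77.6% of members had none.

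The comparison was checked against base composition and neighbouring DNA, with windows chosen after the first counts were seen. Members were AT-rich, with a median GC content of 43.0% against 47.0% for all merged regions and 48.0% for the other DFL regions. Regions picked for PFL had nearly the same GC content, 43.7%, and held CAATAAA in 6.84%. The same letters in reverse order, AAATAAC, which have the same composition, were in 7.59% of member windows and in 8.65% of windows of regions picked for PFL. Windows 1000 bp to the left and to the right of member summits held CAATAAA in 8.63% and 7.92%. The frequency at member summits was therefore higher than at each of these comparators. Tn5 prefers certain sequences, and its part in the position of summits was not tested.

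Along the DNA, HOX13-like motifs were densest near the summit of members. In 25 bp bins the density of CAATAAA was 1.04 matches per kb at −37.5 bp and 1.02 at −12.5 bp from the summit, and 0.283 at −487.5 bp. In regions picked for PFL it was 0.274 and 0.117 at the same bins, and in all merged regions 0.256 and 0.254. MEIS motifs ran the other way. Their density at −12.5 bp was 0.434 per kb in members, 1.21 in regions picked for PFL and 1.57 in regions picked for FB.

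**Figure D4:**
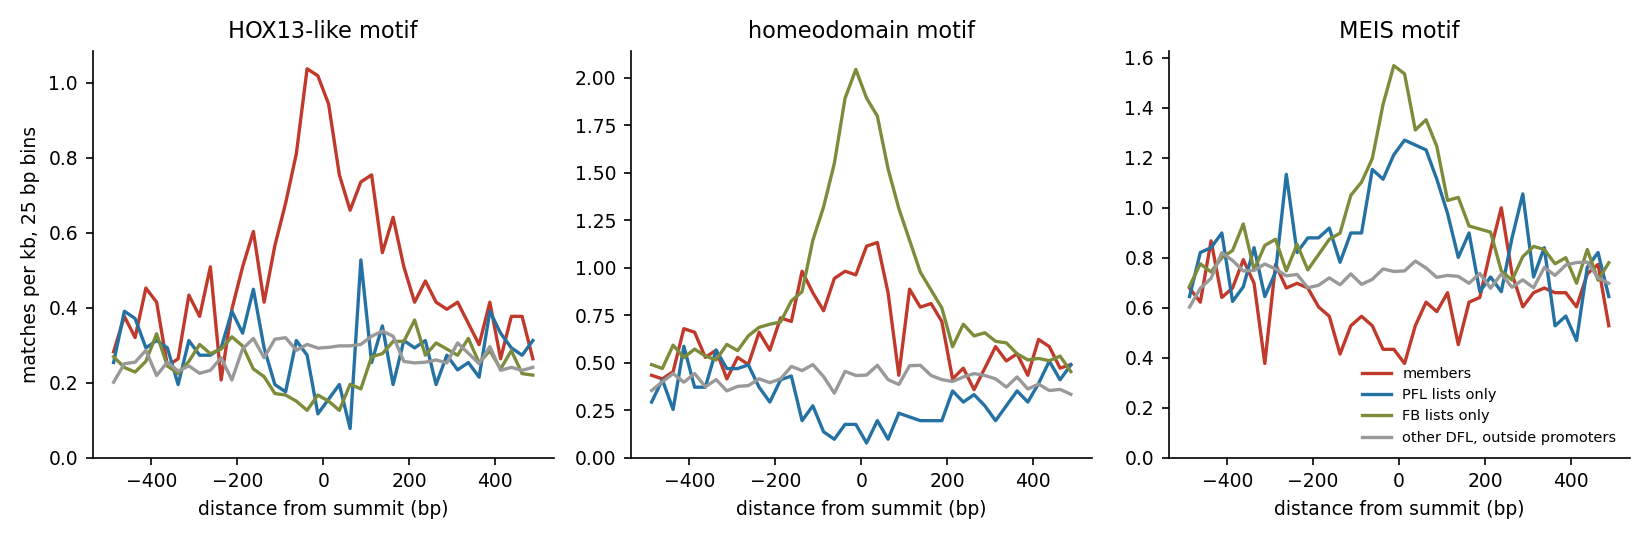
Matches per kb (y axis) of CAATAAA (HOX13-like), TAATTA (homeodomain) and CTGTCA (MEIS), on either strand in 25 bp bins, against distance from the strongest summit (x axis). HOX13-like motifs reach 1.04 per kb next to member summits, whereas MEIS motifs there are at 0.434 per kb against 1.21 in regions picked for PFL.

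Over whole windows, CTGTCA was in 292 members (13.8%), against 22.1% of all merged regions, 26.3% of regions picked for PFL and 30.1% of those picked for FB. Windows 1000 bp beside member summits held it in 18.2% and 18.1%, more than the summit windows themselves. For regions picked for PFL the windows beside the summit held it in 17.7% and 18.3%. The members thus had fewer MEIS motifs than their own flanks and the regions picked for PFL had more. E-boxes, read by bHLH factors, were also less frequent in members than in regions picked for PFL. CAGCTG was in 17.8% of members and 38.6% of regions picked for PFL, and CATCTG in 24.8% and 38.8%. Unlike the MEIS motif, the first of these was more frequent at member summits than in the windows 1000 bp beside them, which held it in 10.9% and 11.2%.

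The motif TAATTA was in 489 members (23.1%) and CAATTA in 559 (26.4%), against 14.1% and 17.0% of all merged regions. These motifs can overlap each other. The reversed letters of TAATTA were in 13.9% of member windows. Those of CAATTA were in 21.4%, so that this motif was only somewhat more frequent than its reversed letters. They were rare in regions picked for PFL, at 4.94% and 8.06%, and more frequent in regions picked for FB, at 32.8% and 33.3%. At least 1 of these homeodomain motifs or of the HOX13-like forms was in 1205 members (56.8%), and CAATAAA together with TAATTA in 95 (4.48%).

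Several other motifs were also compared. Forkhead motifs (TGTTTAC) were in 8.02% of members, against 5.08% of all merged regions and 4.74% of those picked for PFL. TCF and LEF motifs (CTTTGAT), read by effectors of Wnt signals, were in 7.31%, against 5.15% and 3.42%. RUNX motifs (TGTGGTT) were in 7.55%, against 6.82% and 11.6%. Motifs of AP-1 (TGANTCA), TEAD (GGAATG), SOX (ACAATG) and nuclear receptors (AGGTCA) were within about a percentage point of all merged regions, at 10.2% against 9.24%, 20.8% against 20.02%, 15.3% against 15.5% and 15.6% against 14.7%. The core of the CTCF motif was in 3.82% of members, in 12.3% of all merged regions and in 19.8% of the other DFL regions outside promoters, and the SP and KLF motif GGGCGG in 4.43%, 15.3% and 13.4%. As ratios, these differences were larger than that of CAATAAA. Members thus held few motifs that are typical of promoters and of insulators, but this was not particular to them. Regions picked for PFL held the CTCF core in 4.15% and GGGCGG in 3.13%, and those picked for FB in 6.87% and 7.03%. The remaining motifs, for GLI, ETS (CCGGAAG), PBX-HOX, TFAP2, RFX (GTTGCCA) and POU factors, were in between 0.142 and 9.58% of members. Of these, POU motifs were in 1.27% against 3.07% of all merged regions, and ETS motifs in 1.23% against 3.12%. Regions picked for PFL held them in 1.47% and 0.538%, and those picked for FB in 10.3% and 0.909%.

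**Figure D5:**
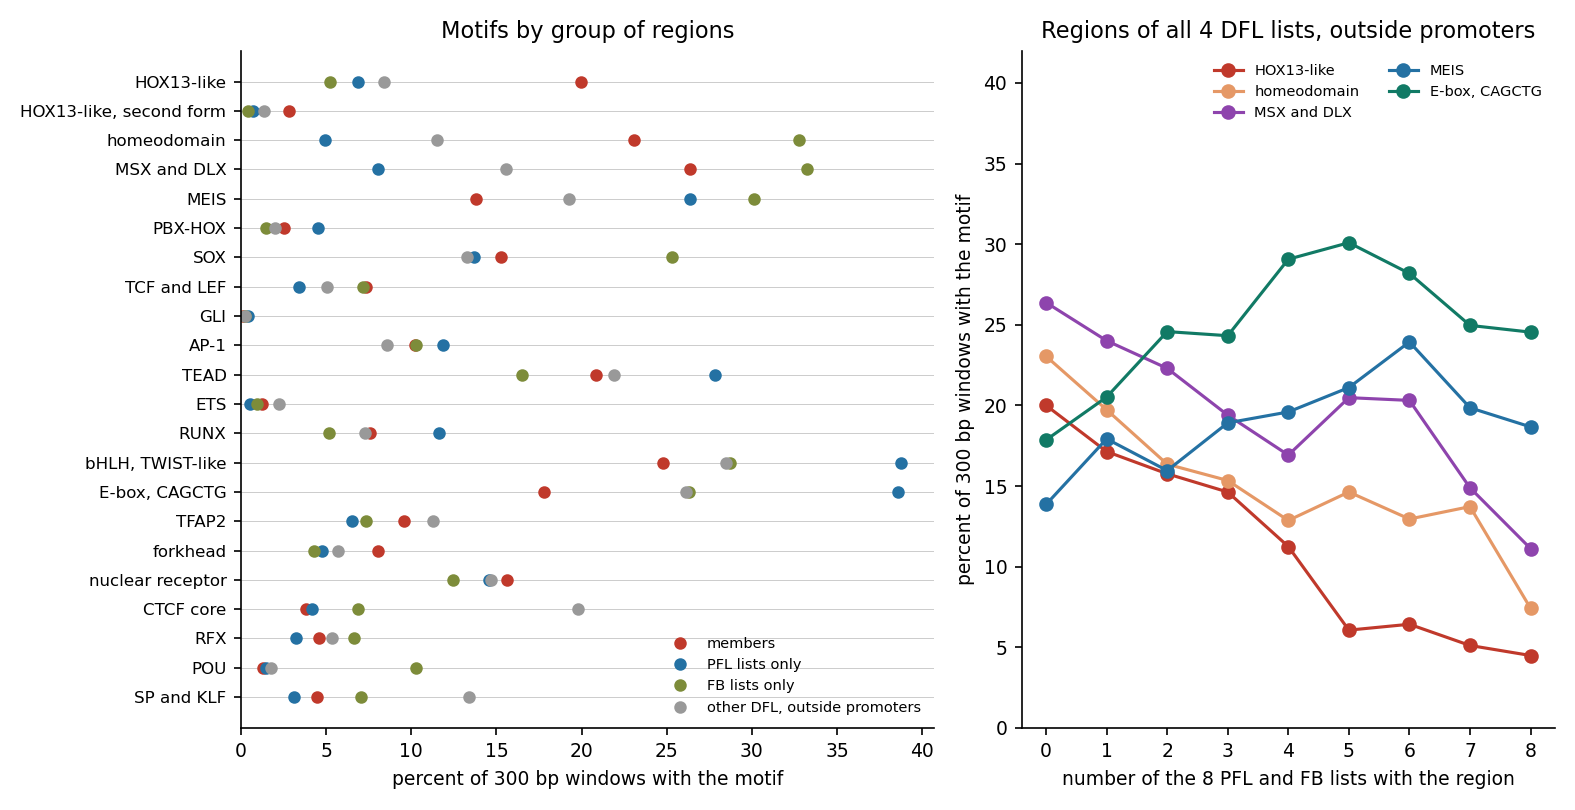
Left, percent of 300 bp windows with each of 22 motifs, by group of regions; right, the same percent for 5 motifs in regions of all 4 DFL lists outside promoters, against the number of the 8 PFL and FB lists that also held the region (0 are the members). CAATAAA (HOX13-like) is in 20% of windows at 0 lists and 4.49% at 8 lists.

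The share of HOX13-like motifs was graded with how far a DFL region was shared, a grouping chosen after the first motif counts were seen, as were the other DFL regions outside promoters. Among regions of all 4 DFL lists outside promoters, CAATAAA was in 20% of those in no PFL or FB list (2100 regions), in 17.1%, 15.8% and 14.6% of those in 1, 2 and 3 such lists, in 11.2% of those in 4 and in 6.06%, 6.42%, 5.11% and 4.49% of those in 5, 6, 7 and 8. TAATTA went from 23.0% at 0 lists to 12.9% at 4 and 7.42% at 8. CTGTCA was at 13.9%, 19.6% and 18.7% at 0, 4 and 8 lists. The median GC content over the same steps was 43.0%, 46.3% and 50.7%, so that base composition moved with the number of lists. Its part in the gradient was not tested. The number of lists pools PFL and FB, and above 4 it must include FB lists. The tissue that shared a region was thus not separated from the number of lists.

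Within the members, HOX13-like motifs did not go with strength. The median mean fold was 6.53 in the 1646 members with none in the window, 6.59 in the 422 with 1 and 6.53 in the 52 with 2 or more. Nor did their share vary much with lower-ranked calls: CAATAAA was in 21.04% of the 556 members with none, in 19.9% of those with calls in PFL and not in FB, in 19.8% of those with calls in FB and not in PFL and in 18.6% of those with calls in both. TAATTA varied more, at 25%, 18.01%, 44.6% and 27.9% in the same classes, of which the third has 121 members.

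Genotype was compared at the 33856 regions present in all 4 DFL lists, of which members made up 6.26%. The rule does not use the difference between genotypes, but it asks for presence in both. Regions that left the list in either genotype were therefore not tested, and differences that large could not be seen here. By limma on quantile-normalised log2 fold, 0 of 2120 members passed a Benjamini-Hochberg adjusted p of 0.05, as against 5 of all regions tested (0.0148%). At an unadjusted p under 0.05 there were 285 members (13.4%), against 10.9% of all regions tested. The median log2 difference, 542 minus wt, was 0.10 in members and 0.0021 over all regions. Without normalisation these values were 237 members (11.2%) against 12.6%, and medians of 0.03 and -0.07, so that the excess of members turned. The region over II1 was among the members not called, and 0 calls do not show that the genotypes are alike. With −log10 q in place of fold, 30 members (1.42%) were called, 28 of them higher in 542, against 1.68% of all regions tested. That measure moves with depth.

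Members near the limit of the rule were as follows. The 3 members with the lowest −log10 q in a DFL list were ranked 49980, 49934 and 49927 in 542 DFL 1, nearest to Gtdc1, Pik3c3 and Plxdc2, with mean folds of 5.27, 5.08 and 6.72. The 3 regions just outside were ranked 50006, 50014 and 50018 in wt DFL 2, nearest to Wdr19, Clnk and Cfap45, with mean folds of 5.38, 5.45 and 3.88. In all, 1874 regions were in 3 DFL lists and in no PFL or FB list, and 905 were in all 4 DFL lists and in a single PFL or FB list.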

How the data were processed

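ATAC-seq libraries of E12.5 DFL, PFL and FB were used as peak files called in each library separately. Per the study's methods, the authors trimmed adapters with cutadapt, aligned with Bowtie2 to mm10 (542 libraries to a genome with the insertion), kept a mapping quality of at least 30, removed duplicates with Picard and called peaks and summits with MACS2 without a control, with tags shifted by -100 bp and extended to 200 bp. The deposited fold is a ratio to local background, the p-values and q-values were deposited by the authors on a −log10 scale, and a score the authors deposited beside them, cut to integers, was not used. No read totals are given, so depth was judged only by the regions per file (85104 to 118339 in the 12 libraries) and the −log10 q at rank 50000 (6.53 to 14.6). The replicates of a group are biological duplicates per the study's reporting.

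Regions with the same borders were joined to 1, represented by their strongest summit. An overlap of 1 bp counted as presence. Chromosomes were restricted before ranking. Genes and starts are those of GENCODE vM21, and sequence was read from GRCm38, not from the strain. Analyses used Python 3.11.15, numpy 2.4.6, pandas 2.3.3, scipy 1.17.1 and, in R 4.3.3, limma 3.58.1 with a trend. Scripts were tested on simulated data and against bedtools 2.31.1. Motifs were searched on both strands. Named regions were the 10 strongest members, the strongest member near each of up to 14 distal limb genes, the 10 genes nearest to the most members, the region over II1 and 3 regions on either side of the limit, and all other members were named after their values were seen. Members, lists, motifs and rules were chosen with earlier results of these data known. The processing alternatives are given with the additional observations. Listed genes on the X chromosome, or on chromosome 2 beyond the limit, could not be nearest to a member. The sequence of 1 further member is not reported here.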

Additional observations from a re-analysis of the deposited data

Results flagged for a closer look

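In 63 sets of 4 libraries (52 named members in the DFL libraries, and measures of the libraries of each tissue), 1 library stood apart from the other 3 in 2 sets, where chance gives about 1 in 20. The fold of the member near Sp9 was 4.87 in 542 DFL 1 and 5.42 to 5.48 in the other 3 DFL libraries, a gap of 0.908 of the whole range. The fold of the member near Plxdc2 was 4.09 in 542 DFL 1 and 7.36 to 7.92 in the others, a gap of 0.853 of the range. The second had been named because it was just inside the limit in that library.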

How the results depend on the processing

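Of 89 alternative settings, 63 kept their result, but the limit for keeping differed between results. For example, 2688 members against 2120 counted as kept, and 17.7% with CAATAAA against 19.95% as moved. For presence in replicate 2 libraries the exact permutation p could not fall below 0.0667. A threshold of 0.05 could therefore not tell those settings apart, and they counted as kept with the direction of the difference unchanged. Members were above all merged regions in the 50000-region list of the additional library but below them, at 14.95% against 17.7%, in its 20000 strongest regions. Within 100 kb the Wnt, Hedgehog, retinoic acid, cartilage, limb ectoderm, and blood and endothelium lists turned from above to below all merged regions. The Bmp and Tgf-beta list turned from below to above. The setting with no normalisation turned the excess of members at an unadjusted p under 0.05. The number of members was set by the rule: 705 with the 20000 strongest regions, 1277 with 30000, 3429 with all deposited regions, 4815 with wt libraries alone and 5316 with 542 libraries alone. It ran from 2140 to 4436 when single libraries or one replicate of every group were left out, the highest value without replicate 1. The percent with CAATAAA was 17.2 to 20.6% over all 24 ways of choosing members, and 15.1% and 27.3% in windows of 200 and 500 bp, against 4.70% and 11.9% of all merged regions. The additional DFL library held 99.5% of members at any rank. The promoter share was 0.519% within 500 bp, 2.69% within 2500 bp and 3.73% with the starts of all annotated genes.

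Between genotypes, limma called 11 regions of all tested with median centring, 9 with no normalisation, 0 with no trend, 568 with −log10 q and 0 to 1 when 1 DFL library was left out, where the lone library of a group is assumed to vary like the others. The replicate block gave 14 calls in place of 5. Same-numbered DFL libraries did not deviate together (correlation of -0.0022). With 2 libraries in each group this value cannot show whether they shared a batch. Members called numbered 30 with −log10 q and 0 in every other setting, those that left out 1 library included. The DFL excess in replicate 2 libraries was 59.6 to 73.8 percentage points over other choices and 68.5 to 75.2 with 1 library left out. The fold depends on depth and local background, and no count of reads entered these values.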
